A study of Mus musculus with 9 samples.

Results

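The 10 genes Pvalb, Actn3, Tnnc2, Mylpf, Atp2a1, Myh4, Myh1, Tnni2, Tnnt3 and Ckm encode contractile, calcium-handling and energy proteins of fast-twitch skeletal muscle fibres. They were picked by symbol from the 22183 genes measured in mouse tibia, and all 10 passed the low-count filter that left 14211 genes to test. Polyadenylated RNA was sequenced from tibiae in 3 groups of 3 libraries. Ti+I-OG tibiae received titanium particles together with I-OG, an injectable natural-polymer hydrogel that carries irisin, a peptide hormone released by muscle. Ti tibiae received titanium particles without the gel, and naive tibiae were left untreated. A duration of 5 weeks is stated for the hydrogel treatment alone, so whether the groups were matched in time is not known. The labels name no strain, age, empty gel or sham procedure. The particles and the procedure that delivered them therefore cannot be told apart, nor can irisin and the gel that carries it. Whether the libraries of a group come from different animals is not stated either. The p-values therefore judge group differences against the spread between these libraries, which may be technical.

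Fast-twitch fibres shorten quickly and tire quickly. Calcium released inside the fibre binds the troponin complex on the thin actin filament, which lets the heads of fast myosin pull on actin, and the calcium is then pumped back into the sarcoplasmic reticulum. Most parts of this machine exist as fast and slow paralogs, and the ratio of the paralogs is a common readout of fibre type. Muscle is not part of bone, but muscles of the lower leg insert on the tibia and can be carried along when it is dissected. In RNA from bulk tissue, fewer fibres and less RNA per fibre cannot be told apart.

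Total counts per library were 16256081 to 21998585 in Ti+I-OG, 20164092 to 24049496 in Ti and 20636647 to 24766502 in naive, and TMM-normalised counts scaled to library size (CPM) are used below. The 7 osteoblast and bone markers summed to 1845 to 2929 CPM in Ti+I-OG, 2786 to 4306 CPM in Ti and 825 to 1613 CPM in naive, so genes of the labelled tissue were present in every library. Erythroid markers took 15.6% to 16.5% of counts in Ti+I-OG, 7.03% to 10.4% in Ti and 3.23% to 9.97% in naive. The 10 fast-twitch genes together took 0.266% to 0.472% of counts in Ti+I-OG, 0.197% to 0.706% in Ti and 0.0944% to 0.270% in naive.

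Promoters are shown for the 3 genes on which the results below turn: Mylpf, the gene that passed the test, and the neighbouring myosin genes Myh4 and Myh1, whose ratio to each other is given per library below. RefSeq's promoter table for build GRCm38.p6 matched 7 of the 10 genes, and the 250 bases before each start site were searched on both strands. Capitals mark matches to the TATA box, the CAGCTG form of the E-box, the MCAT element, the MEF2 motif and the CArG box. The TATA box was searched as TATAAA, and CATTCC stands for the MCAT element; the general E-box, CANNTG, was counted but not capitalised. The stretches are chr7:127211358-127211607 for Mylpf, chr11:67237562-67237811 for Myh4 and chr11:67199852-67200101 for Myh1, all on the plus strand.
Mylpf: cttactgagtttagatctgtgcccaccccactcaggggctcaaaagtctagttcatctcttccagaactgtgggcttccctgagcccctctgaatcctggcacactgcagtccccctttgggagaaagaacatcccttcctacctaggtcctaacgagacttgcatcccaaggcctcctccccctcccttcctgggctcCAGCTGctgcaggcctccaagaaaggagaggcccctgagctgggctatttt
Myh4: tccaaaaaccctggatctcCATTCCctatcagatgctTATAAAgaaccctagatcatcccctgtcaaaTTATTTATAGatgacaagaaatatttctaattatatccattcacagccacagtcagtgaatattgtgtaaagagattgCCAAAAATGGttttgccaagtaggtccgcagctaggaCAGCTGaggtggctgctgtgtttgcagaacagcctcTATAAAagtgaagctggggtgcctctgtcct
Myh1: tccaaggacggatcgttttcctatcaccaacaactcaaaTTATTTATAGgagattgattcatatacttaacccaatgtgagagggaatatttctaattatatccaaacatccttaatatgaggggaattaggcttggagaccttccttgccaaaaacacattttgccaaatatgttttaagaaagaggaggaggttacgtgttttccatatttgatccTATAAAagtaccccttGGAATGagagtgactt

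The stretch of Mylpf, the fast regulatory light chain, held 1 of the capitalised motifs, a CAGCTG E-box at −51 to −46. Myh4 and Myh1 each had a TATA box at nearly the same distance, −31 to −26 in Myh4 and −32 to −27 in Myh1, and each had a MEF2 match that overlaps a further TATA match on the other strand. Myh4 also held a CAGCTG E-box and a CArG box, and neither of these was matched in Myh1. Among the 7 genes, CAGCTG was found in 4, against 12.8% of 27018 mouse promoters, and a MEF2 match in 3, against 3.01%. A TATA box was found in 2 (13.0% of all promoters), an MCAT element in 2 (12.6%), a CArG box in 1 (1.4%) and the general E-box in 6 (66.1%). Every start site of the 7 genes was searched, 2 of them for Pvalb, whereas the percentages over all promoters use the first start site of each gene. The only E-box of Pvalb lay before its start site 2, at −111 to −106. The 6 therefore comes from a wider search than the 66.1%. These matches describe letters in a window and say nothing about binding.

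**Figure D1:**
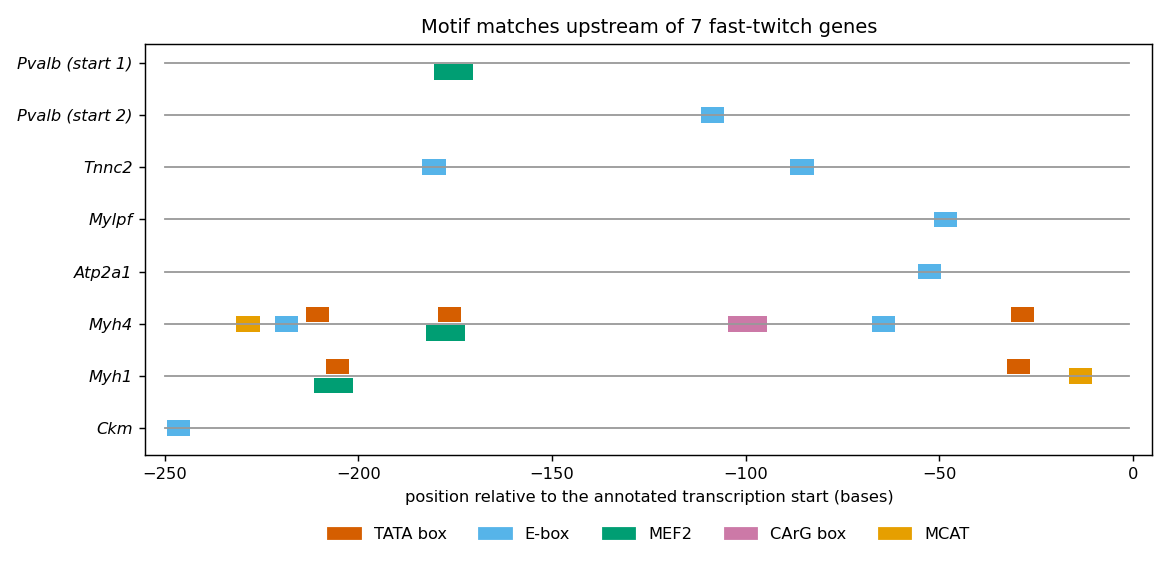
Position of motif matches in the 250 bases upstream of the start sites of 7 fast-twitch genes (2 start sites for Pvalb), in bases from the start site (RefSeq, GRCm38.p6). Each coloured block is 1 match, and E-box blocks are the general form. Myh4 and Myh1 share a TATA match near the start site and an upstream MEF2 match, and Mylpf carries a CAGCTG E-box.

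Myosin genes were measured at very different levels per length of transcript. On the FPKM scale (fragments per kilobase of transcript, scaled to depth), Mylpf ranked second of the 10 genes in all 3 groups, with 487 ± 134 in Ti+I-OG, 559 ± 296 in Ti and 175 ± 83.8 in naive (SD, n = 3 each). Myh4, the heavy chain of the fastest fibres (type IIb), had 88.1 ± 27.2, 91.7 ± 55.9 and 60.1 ± 34.4 FPKM in Ti+I-OG, Ti and naive. Myh1, the type IIx heavy chain, was the lowest of the 10 in every group, at 22.9 ± 6.27 FPKM in Ti+I-OG, 53.1 ± 27.7 in Ti and 25.6 ± 15.1 in naive. The order of the extremes was thus the same throughout: Tnnt3, the troponin T that ties the complex to tropomyosin, ranked highest with 589 ± 161, 697 ± 386 and 273 ± 124 FPKM, and Atp2a1, Myh4, Actn3 and Myh1 filled the lowest 4 places in each group. Ckm, Pvalb, Tnni2 and Tnnc2 lay between 326 and 395 FPKM in Ti+I-OG, between 367 and 388 in Ti and between 137 and 168 in naive. Their means differed by less than their SD. That SD is a spread between libraries that the genes largely share, so it does not compare genes within a library. As a share of the 10 genes' summed FPKM, Ckm exceeded Tnnc2 in each Ti+I-OG library (14.1%, 13.4% and 14.1% against 11.2%, 11.5% and 11.4%). In Ti replicate 1 it was below Tnnc2 (9.54% against 11.5%). Next to each other in the order, means differed by more than the larger SD in Ti+I-OG at 3 steps (Tnnc2 above Atp2a1, Atp2a1 above Myh4 and Actn3 above Myh1), and at none in Ti or naive. This count uses the same SDs between libraries. Tnnt3 was above Mylpf in every library, although their step is not among the 3.

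The myosin genes come first in the values per library. Mylpf had 291, 532 and 377 CPM in Ti+I-OG replicates 1 to 3, 477, 616 and 176 CPM in Ti and 80.1, 199 and 98.8 CPM in naive. Ti replicate 3 lay below naive replicate 2, so the Ti and naive libraries overlapped, whereas all 3 Ti+I-OG libraries were above all 3 naive ones. Myh4 had 378, 653 and 675 CPM in Ti+I-OG, 565, 871 and 204 in Ti and 129, 388 and 498 in naive, and its groups overlapped in every comparison. Myh1 had 105, 167 and 173 CPM in Ti+I-OG, 335, 471 and 141 in Ti and 48.4, 179 and 205 in naive. For Myh1 the Ti+I-OG libraries sat inside the naive range, unlike Mylpf.

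The 3 fast troponin subunits are the calcium switch of the thin filament. Tnnc2, the calcium-binding subunit, had 167, 319 and 251 CPM in Ti+I-OG, 253, 413 and 111 in Ti and 47.0, 139 and 85.8 in naive. Tnni2, the inhibitory subunit, had 198, 347 and 285 CPM in Ti+I-OG, 287, 427 and 129.9 in Ti and 56.4, 170.3 and 114 in naive. Tnnt3 had 429, 783 and 619 CPM in Ti+I-OG, 689.6, 990.5 and 272 in Ti and 125, 348 and 252 in naive. In all 3 subunits the Ti+I-OG libraries were above the naive ones without overlap, and Ti replicate 3 fell among the naive libraries.

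Pvalb, a soluble calcium buffer of the fastest fibres, had 218, 511 and 354 CPM in Ti+I-OG, 319.5, 572 and 147 in Ti and 78.0, 198 and 109 in naive. Atp2a1, the fast calcium pump SERCA1, had 457, 810.5 and 771 CPM in Ti+I-OG, 642, 1165 and 351 in Ti and 156, 472 and 537 in naive. Pvalb separated Ti+I-OG from naive, and Atp2a1 did not. Actn3, the Z-disc crosslinker of fast fibres, had 124, 238 and 212 CPM in Ti+I-OG, 204, 378 and 86.6 in Ti and 42.3, 125 and 130.3 in naive, with overlap in every comparison. Ckm, the creatine kinase that buffers ATP in muscle, had 531, 913 and 782 CPM in Ti+I-OG, 518, 1096 and 325 in Ti and 126, 388 and 354 in naive. Its 3 Ti+I-OG libraries were all above the 3 naive ones.

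**Figure D2:**
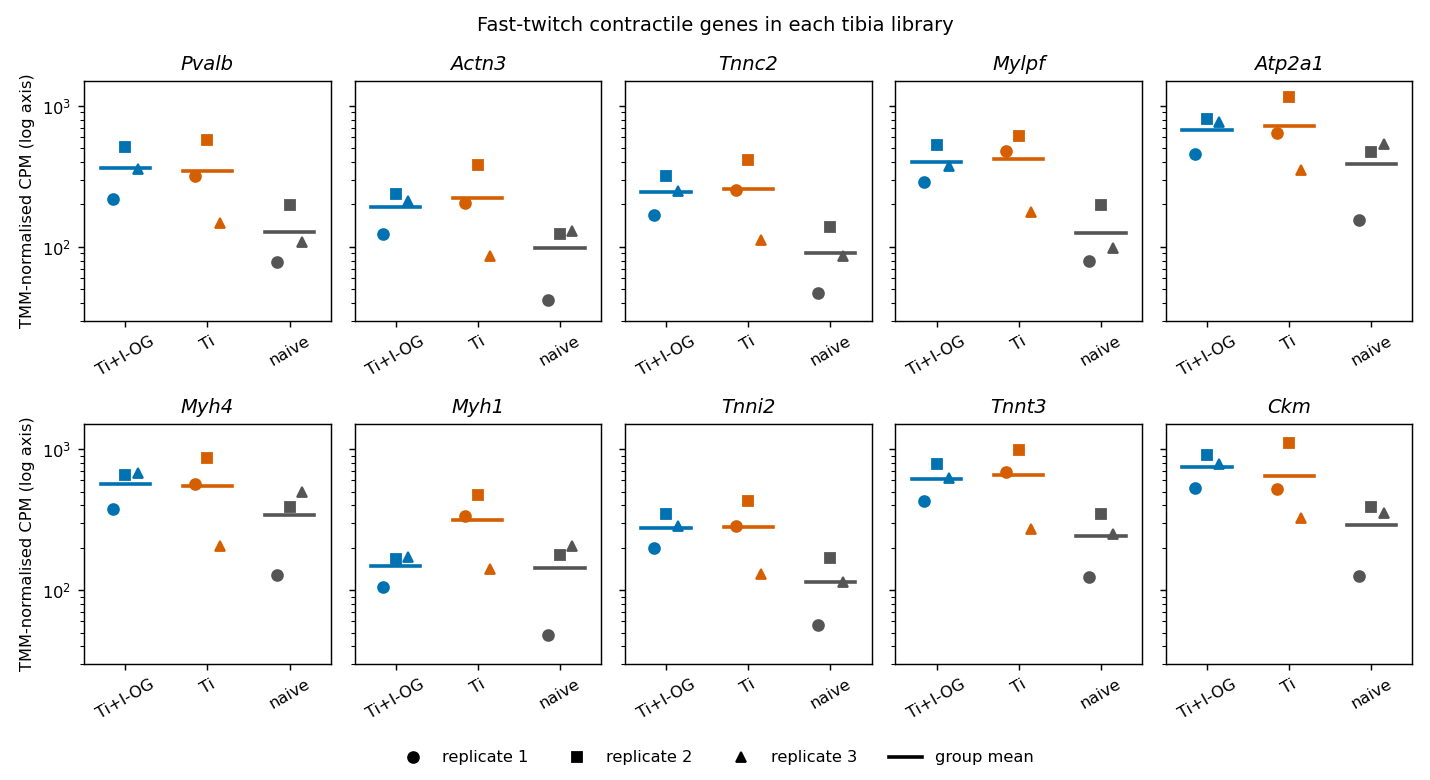
TMM-normalised CPM (log axis) of the 10 genes in each library, with Ti+I-OG, Ti and naive from left to right; symbols mark replicates and bars the group means. Ti replicate 2 is the highest and naive replicate 1 the lowest of the 9 libraries in every panel.

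Ti replicate 2 was the highest and naive replicate 1 the lowest of all 9 libraries for each of the 10 genes. Within groups, the lowest library was Ti+I-OG replicate 1, Ti replicate 3 and naive replicate 1 for 10 of 10 genes. Ti replicate 2 exceeded Ti replicate 3 by 3.29-fold (Tnni2) to 4.37-fold (Actn3) in CPM, for each gene more than its own fold change between any of the groups below. Across the 9 libraries, the 45 pairs of genes had Pearson correlations of log2(FPKM + 0.1) of 0.649 to 0.997, with a median of 0.933; the points share libraries and depth, and no test was made. Mitochondrially encoded genes took 5.74% to 7.36% of counts in Ti+I-OG, 5.87% to 11.9% in Ti and 4.60% to 7.04% in naive, and Ti replicate 2 held the highest value; its part in the levels was not tested.

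With titanium particles, compared with naive tibiae, the fold changes of all 10 genes were positive and 1 of them passed the test: Mylpf rose by 1.75 on the log2 scale (SE 0.44), a 3.36-fold difference (adjusted p = 0.0389, edgeR's quasi-likelihood test with Benjamini-Hochberg adjustment over 14211 genes). Its mean was 423 ± 225 CPM in Ti and 126 ± 63.9 CPM in naive (SD, n = 3 each). Of all genes tested, 6.43% passed in either direction, 4.05% higher and 2.39% lower. The median log2 fold change of the 10 was 1.24, against 0.007 over all genes tested, and 8 had an unadjusted p under 0.05, as did 26.9% of all genes tested. Below the threshold lay the troponins Tnnc2 (1.52 ± 0.46 SE, adjusted p = 0.068), Tnnt3 (1.43 ± 0.44, adjusted p = 0.0741) and Tnni2 (1.31 ± 0.43, adjusted p = 0.0865), and Pvalb (1.43 ± 0.47, adjusted p = 0.0849), all from the edgeR fit. Actn3 (1.17), Ckm (1.16), Myh1 (1.13), Atp2a1 (0.89) and Myh4 (0.69) had adjusted p-values of 0.135 to 0.402. For none of the 10 genes were all Ti libraries above all naive ones, while 14.3% of tested genes were separated in that direction and 12.9% in the other. The Mylpf call did not hold when any of Ti replicate 1 (1.64, adjusted p = 0.132), Ti replicate 2 (1.36, 0.170), naive replicate 1 (1.51, 0.110) or naive replicate 3 (1.58, 0.136) was left out. Without Ti replicate 3, 7 of the 10 genes passed, as did 1999 of 14400 genes tested in that fit (13.9%). Without naive replicate 2, 5 of the 10 passed, as did 1428 of 14385 genes (9.93%).

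With hydrogel added to the particles, compared with particles alone, none of the 10 genes passed the edgeR test, where 0.0422% of all genes tested did, all of them higher in Ti+I-OG. The 1 gene of the 10 with an unadjusted p under 0.05 (7.84% of all genes tested) was Myh1, at 148 ± 37.8 CPM in Ti+I-OG and 316 ± 166 CPM in Ti (SD, n = 3 each), a log2 difference of −1.09 with an interval of −2.16 to −0.02 (adjusted p = 0.63). The other 9 had log2 differences of −0.22 (Actn3) to 0.20 (Ckm), and the median of the 10 was −0.08, against −0.003 over all genes. Their 95% intervals ran from −1.29 at the lowest to 1.18 at the highest bound, so differences of about that size in either direction were not resolved with 3 libraries a group. Libraries of both groups overlapped for all 10 genes, where 7.75% of tested genes were separated with Ti+I-OG higher and 6.71% with it lower, and neither DESeq2 nor limma-voom called any of them.

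With particles and hydrogel, compared with naive tibiae, all 10 fold changes were positive and Mylpf again was the 1 gene that passed, rising by 1.67 on the log2 scale (SE 0.44), a 3.18-fold difference (adjusted p = 0.0423, edgeR). Its mean was 400.0 ± 122 CPM in Ti+I-OG and 126 ± 63.9 CPM in naive (SD, n = 3 each). Of all genes tested, 8.26% passed, 3.84% higher and 4.43% lower. Pvalb (1.50 ± 0.47 SE), Tnnc2 (1.44 ± 0.46), Ckm (1.36 ± 0.46), Tnnt3 (1.34 ± 0.44) and Tnni2 (1.28 ± 0.43) had adjusted p-values of 0.066 to 0.0786 in the edgeR fit. For these 5 and Mylpf, 6 of 10 genes, all Ti+I-OG libraries were above all naive ones, as they were for 18.7% of the tested genes, and none of the 10 was separated the other way, as 16.9% were. Actn3 (0.95), Atp2a1 (0.81) and Myh4 (0.75) had adjusted p-values of 0.218 to 0.343, and Myh1 stood at 0.04 (adjusted p = 0.962). This comparison and the one of Ti with naive share the naive libraries. Leaving out any Ti+I-OG library, naive replicate 1 or naive replicate 3 ended the Mylpf call, at log2 fold changes of 1.40 to 1.85 and adjusted p-values of 0.0692 to 0.170, and without naive replicate 2, 5 of the 10 genes passed, as did 2119 of 14385 genes tested in that fit (14.7%). Same-numbered libraries of these groups deviated together, though no label ties them, so the block was chosen from the data it tests. With the replicate number as a block 6 of the 10 genes passed, as did 24.3% of all genes tested. They were the same 6 whose libraries did not overlap, and Mylpf stood at 1.74 (adjusted p = 0.00388, edgeR). In Ti over naive, which was not taken as paired, the same blocked fit called 6 of the 10, where 20.9% of all genes passed.

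**Figure D3:**
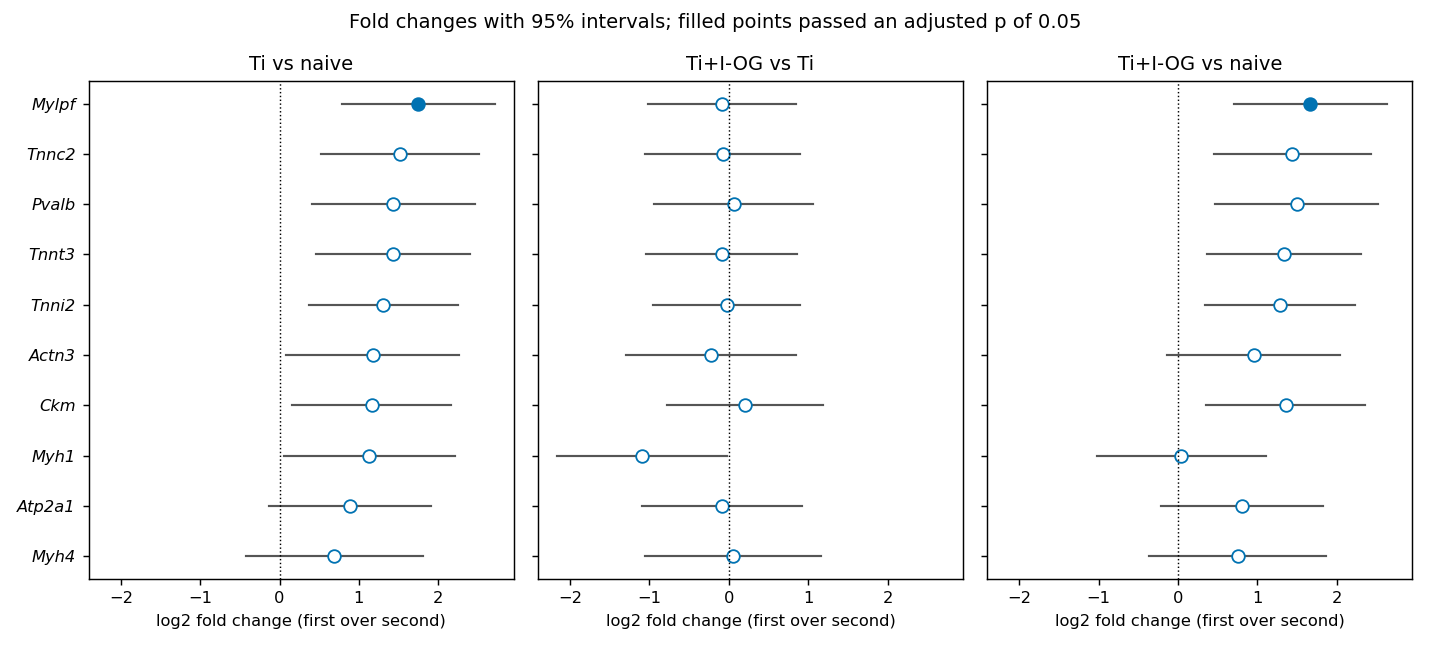
Log2 fold changes of the 10 genes with 95% intervals from the edgeR fit, in a panel for each comparison; filled points passed an adjusted p of 0.05. Mylpf is the filled point in the Ti vs naive and Ti+I-OG vs naive panels, and the Ti+I-OG vs Ti panel has none, with Myh1 farthest to the left.

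Long and short transcripts of the set did not move alike in naive replicate 3. Relative to naive replicate 2, the CPM of naive replicate 3 was 0.497-fold for Mylpf (transcript length 763 bases), 0.550-fold for Pvalb (953 bases) and 0.619-fold for Tnnc2 (700 bases). It was 1.28-fold for Myh4 (6016 bases), 1.15-fold for Myh1 (6023 bases) and 1.14-fold for Atp2a1 (3447 bases). In that library the 10 genes' deviations rose with length at a Spearman correlation of 0.842, and in naive replicate 2 at 0.636. Ti+I-OG replicates 1 and 2 ran the other way at −0.721 and −0.733. The remaining libraries lay at −0.248 to −0.0424, all as descriptions over 10 genes. The slope over all genes, in log2 units per log2 unit of length, was 0.0398, 0.0609 and 0.190 in naive replicates 1 to 3. It was −0.0873, −0.152 and −0.0362 in Ti+I-OG and 0.0123, −0.00128 and −0.0259 in Ti. Naive and Ti+I-OG libraries thus did not overlap in this slope. The 6 genes separated between Ti+I-OG and naive had lengths of 700 to 1764 bases, and the 4 that overlapped 2887 to 6023 bases. The part that length has in this split was not tested. When a length trend was removed from each library, Mylpf had log2 fold changes of 1.51 for Ti over naive (adjusted p = 0.0595) and 1.23 for Ti+I-OG over naive (adjusted p = 0.117), both by edgeR, and no longer passed. With the replicate block and the length trend in the same edgeR fit, Mylpf (1.3, adjusted p = 0.0336), Ckm (1.28, adjusted p = 0.0385) and Pvalb (1.15, adjusted p = 0.0425) passed in Ti+I-OG over naive, as did 14.8% of all genes tested.

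**Figure D4:**
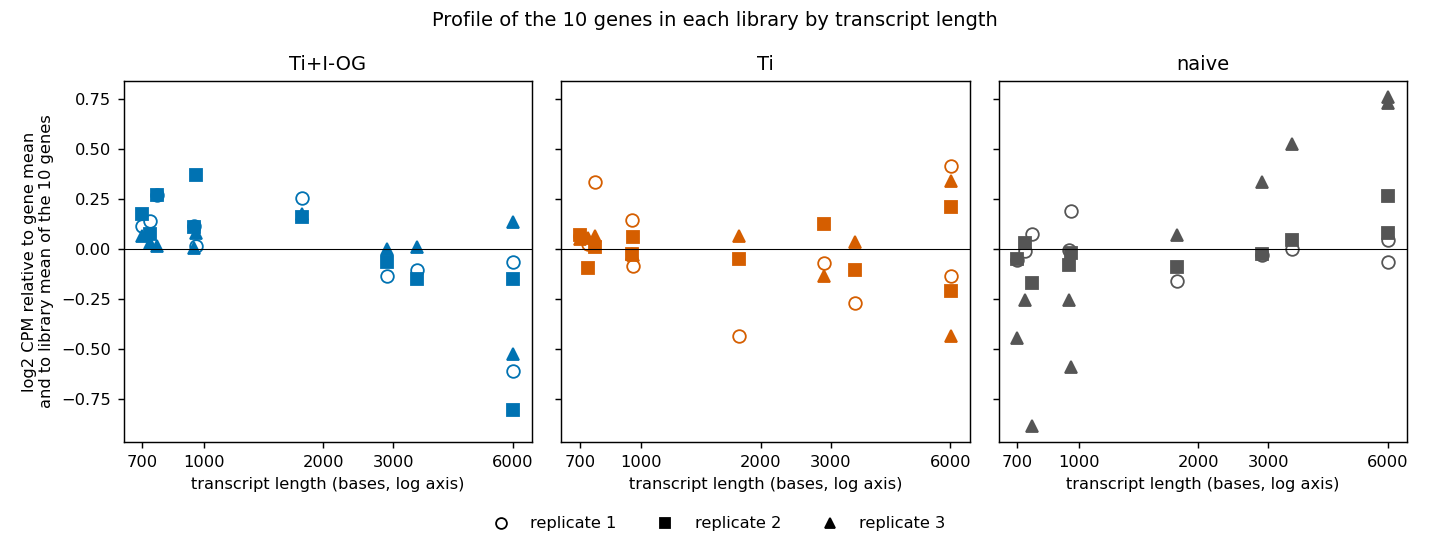
Log2 CPM of each gene relative to its own mean and to the mean of the 10 genes in that library, against transcript length in bases (log axis), in panels for Ti+I-OG, Ti and naive. In naive replicate 3 (triangles) the short genes lie below 0 and the long ones above it; in Ti+I-OG the low points at the right are Myh1.

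The balance between the fast genes and their slow-fibre counterparts was compared gene by gene and as ratios. Of the 6 genes in the whole table that passed in Ti+I-OG over Ti, 5 were slow-fibre genes: Tnni1, Tnnt1, Myh7, Myl2 and Myl3. Tnni1, the slow inhibitory troponin, had 5.50, 6.46 and 4.82 CPM in Ti+I-OG and 0.803, 0.742 and 0.441 CPM in Ti, and rose by 3.06 on the log2 scale (SE 0.36, adjusted p = 0.0198, edgeR), while its fast partner Tnni2 stood at −0.03. Tnnt1, the slow troponin T, rose by 1.55 (SE 0.22, adjusted p = 0.0322, edgeR), with Tnnt3 at −0.09. The slow and cardiac calcium-binding subunit Tnnc1 did not pass (3.35, adjusted p = 0.132, edgeR), with Tnnc2 at −0.08. Myh7, the slow heavy chain, had 11.4, 10.2 and 11.1 CPM in Ti+I-OG and 0.567, 0.907 and 0.245 CPM in Ti, and rose by 4.21 (SE 0.40, adjusted p = 0.00387, edgeR). The slow regulatory light chain Myl2 rose as well (2.01, adjusted p = 0.0322, edgeR), with its fast counterpart Mylpf at −0.08. So did the slow essential light chain Myl3 (2.95, adjusted p = 0.0212, edgeR), whose fast counterpart Myl1, not one of the 10, stood at −0.32. Actn2 (0.17), the alpha-actinin of all fibres, and Atp2a2 (0.03), the slow and cardiac calcium pump that most cells also use, did not pass, as Actn3 (−0.22) and Atp2a1 (−0.08) did not. With a library left out, Myh7 passed in 5 of 6 edgeR fits (all but that without Ti replicate 1, adjusted p = 0.0588), Myl3 in 2, Tnni1 in 1 and Myl2 and Tnnt1 in none, with adjusted p-values up to 0.227.

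The slow genes were scarce beside the fast ones. The 3 slow troponins rest on 306 (Tnnc1), 290 (Tnni1) and 604 (Tnnt1) pooled counts in Ti+I-OG, 40, 44 and 259 in Ti and 14, 5 and 195 in naive. Summed over its subunits, the fast to slow troponin log2 ratio of FPKM was 5.74 ± 0.39 in Ti+I-OG, 7.80 ± 0.75 in Ti and 7.17 ± 0.83 in naive (SD, n = 3 each). Ti+I-OG minus Ti was −2.06 and Ti+I-OG minus naive −1.43, without overlap of libraries in either comparison; the two-sided exact permutation p was 0.1 in both, the smallest that 3 against 3 allows (0.225 adjusted over 9 such tests). Ti minus naive was 0.63 (exact permutation p = 0.5), with overlapping libraries. Tnnt1 held most of the slow troponin counts in Ti and naive. Its pooled count ratio of Ti over naive, scaled to library size, was 1.44, against 3.11 for Tnnc1 and 9.57 for Tnni1. The troponin ratio of replicates 1 to 3 was 7.79, 8.55 and 7.05 in Ti and 6.37, 8.02 and 7.12 in naive. In these groups it ordered the libraries as the summed CPM of the 10 fast genes did. In Ti+I-OG (5.35, 5.75 and 6.13) it did not. The part that the amount of muscle RNA has in this ratio was not tested. The fast genes were also set against 18 sarcomere genes taken as shared between fibre types, which was not checked for each gene. The mean log2(FPKM + 0.1) of all 10 fast genes exceeded that of the 18 by 3.85 ± 0.30 in Ti+I-OG, 3.82 ± 0.06 in Ti and 3.64 ± 0.12 in naive. The groups were thus 0.03 (Ti+I-OG minus Ti), 0.21 (Ti+I-OG minus naive) and 0.17 (Ti minus naive) apart. The libraries overlapped in the comparisons of Ti+I-OG with Ti and with naive, and those of Ti were all above those of naive.

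Among the 4 adult heavy chains Myh4, Myh1, Myh2 and Myh7, the fast pair Myh4 and Myh1 made up 91.9% ± 2.82 of the summed FPKM in Ti+I-OG, 95.1% ± 1.59 in Ti and 96.1% ± 0.286 in naive (SD, n = 3 each). The difference was −3.24 percentage points for Ti+I-OG minus Ti, −4.25 for Ti+I-OG minus naive and −1.01 for Ti minus naive (exact permutation p = 0.2, 0.1 and 0.3). Myh7 took 2.06%, 1.16% and 1.18% of the heavy chain in Ti+I-OG replicates 1 to 3, 0.0588%, 0.0639% and 0.0643% in Ti and 0.0400%, 0.0156% and 0.0339% in naive. Myh2, the type IIa heavy chain, took 9.0%, 4.29% and 6.62% in Ti+I-OG, 4.17%, 3.63% and 6.61% in Ti and 3.62%, 4.17% and 3.68% in naive, so Myh2 took up more of the heavy chain outside the fast pair than Myh7 in every library. The ratio of Myh1 to Myh4 was chosen after its values were seen and is given without a test. It was 0.277, 0.255 and 0.256 (FPKM over FPKM) in Ti+I-OG, 0.597, 0.540 and 0.692 in Ti and 0.372, 0.466 and 0.410 in naive. The 3 groups did not overlap in this ratio although they overlapped in the level of either gene, and the transcripts are of nearly the same length (6023 and 6016 bases). Of the windows of 50 bases in the annotated transcripts, 18.9% in Myh4 and 25.4% in Myh1 are shared with other myosin heavy chain genes, so the split of reads between them is uncertain.

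**Figure D5:**
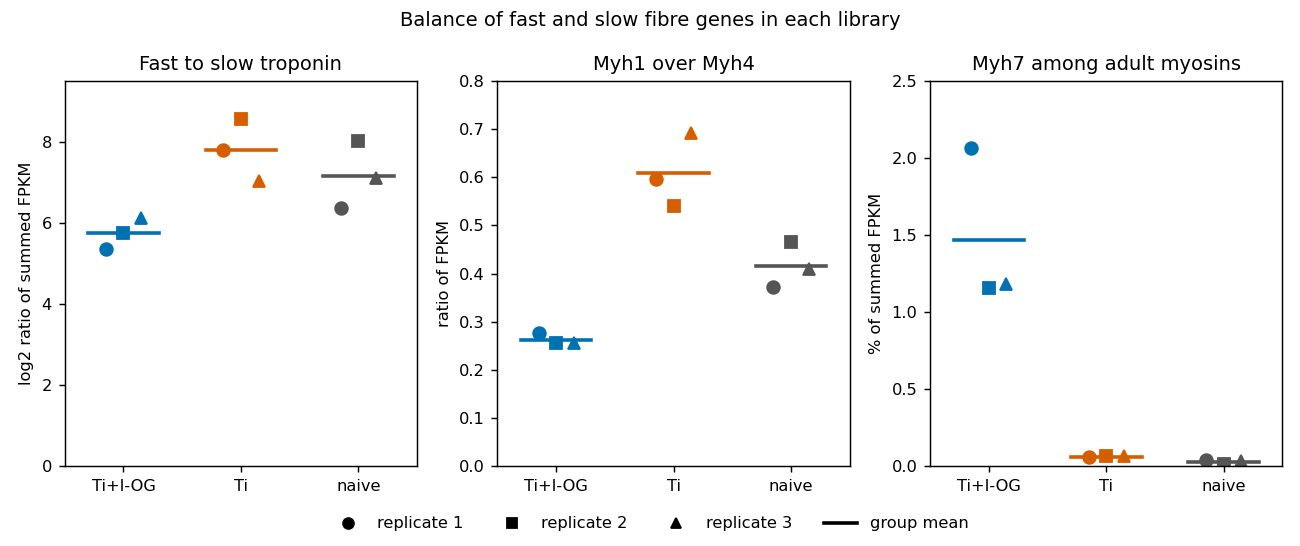
Fast to slow troponin log2 ratio of summed FPKM (left), Myh1 over Myh4 FPKM (middle) and Myh7 as a percentage of the summed FPKM of 4 adult myosin heavy chains (right), for Ti+I-OG, Ti and naive; symbols mark replicates and bars the means. Ti+I-OG is the lowest group in the left and middle panels and the highest in the right one, at 1.16% to 2.06%.

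Most other muscle lists had positive medians in both comparisons with naive and no gene that passed. Of 8 other fast-fibre genes, none passed by edgeR or limma-voom in any comparison, and DESeq2 called 1 in each comparison with naive. Their median was 1.22 for Ti over naive (8 with an unadjusted p under 0.05), −0.19 for Ti+I-OG over Ti (0) and 1.26 for Ti+I-OG over naive (6). Over all genes tested, an unadjusted edgeR p under 0.05 was found for 26.9%, 7.84% and 29.8% in these comparisons. Smtnl1 came closest in Ti over naive (1.86, adjusted p = 0.0533), as did Myh2 in Ti+I-OG over naive (1.33, adjusted p = 0.0666). Of 18 sarcomere genes taken as shared between fibre types, 12 of the triad and calcium release and 10 of muscle glycogen and glycolysis, none passed by edgeR or limma-voom in any comparison. Their medians were 1.04, 1.06 and 0.96 in Ti over naive and 0.97, 0.96 and 1.01 in Ti+I-OG over naive. DESeq2 called 3, 2 and 1 of them in each comparison with naive, and 9, 8 and 5 had an unadjusted edgeR p under 0.05 in Ti over naive, against 8, 6 and 5 in Ti+I-OG over naive (29.8% of all genes tested) and 0 of each in Ti+I-OG over Ti. With the replicate block, 6 of the 8 other fast-fibre genes and 7, 5 and 5 of these 3 lists passed in Ti+I-OG over naive, where 24.3% of all genes did. Of 8 myofibre transcription factors none passed by edgeR or limma-voom (unadjusted p under 0.05 for 3 in Ti over naive, 1 in Ti+I-OG over Ti and 2 in Ti+I-OG over naive; DESeq2 called 2 in Ti over naive), with medians of 0.47, −0.26 and 0.14 in those comparisons. These 3 counts at an unadjusted p are near the shares over all genes given above. With the replicate block 1 of the 8 passed in Ti+I-OG over naive, Mef2d, which was lower (−0.34, adjusted p = 0.0264, edgeR). None of 6 tested neuromuscular junction genes passed by edgeR, DESeq2 or limma-voom, and 0 had an unadjusted p under 0.05 in any comparison. Slow-fibre genes did pass by edgeR: 5 of 8 tested were higher in Ti over naive, 5 of 8 in Ti+I-OG over Ti and 8 of 8 in Ti+I-OG over naive, with medians of 1.86, 2.48 and 4.38. Of all genes tested, 4.05%, 0.0422% and 3.84% were called higher. Limma-voom called 3, 5 and 8 of the slow-fibre genes. In Ti over naive with a library left out, Myl2 passed in 6 of 6 edgeR fits, Tnni1 in 5, Myl3, Myoz2 and Casq2 in 2 each, Myh7 in 1 and Tnnc1 and Tnnt1 in 0. Of the developmental and regenerating muscle list, 3 of 11 genes had enough counts to test; Actc1, the actin of developing muscle and heart, rose in Ti over naive (2.11, adjusted p = 0.026, edgeR), and Actc1 (2.43) and Myl4 (1.54) rose in Ti+I-OG over naive. Each of these 3 calls held in 2 of 6 edgeR fits with a library left out. Of 6 tested atrophy and stretch genes, 1 rose in Ti over naive, Csrp3 (1.66), a Z-disc protein of stretch sensing, and 2 in Ti+I-OG over naive, Csrp3 (1.98) and Ankrd2 (1.74). With a library left out, Csrp3 passed in 2 of 6 edgeR fits in Ti over naive (adjusted p up to 0.212, without Ti replicate 2) and in 1 of 6 in Ti+I-OG over naive, and Ankrd2 in 2 of 6 in Ti+I-OG over naive. By limma-voom none of the 6 passed in Ti over naive and 2 did in Ti+I-OG over naive, and with the replicate block 3 passed in Ti+I-OG over naive, Ankrd1 (1.83, adjusted p = 0.0459, edgeR) being added.

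Tendon markers rose in the same comparisons with naive. All 6 tendon markers had counts in every library and summed to 106 to 208 CPM in Ti+I-OG, 177 to 316 CPM in Ti and 40.7 to 50.9 CPM in naive. By edgeR, 5 of 6 rose in Ti over naive and 4 of 6 in Ti+I-OG over naive, led by Tnmd (3.99 and 3.50), a membrane protein of tenocytes. Among all genes tested, 4.05% were called higher in Ti over naive and 3.84% in Ti+I-OG over naive. None of the 7 cardiac markers had enough counts to test, with a sum of 0.294 to 1.49 CPM, and Nppa and Nkx2-5 were at 0 in all 9 libraries. Of 6 smooth muscle markers, 2 rose in Ti over naive and 1, Acta2 (1.04), in Ti+I-OG over naive; the list summed to 67.2 to 99.96 CPM in Ti+I-OG, 85.7 to 114 CPM in Ti and 47.2 to 68.2 CPM in naive. Of 7 osteoblast, 5 adipocyte, 7 erythroid and 5 tested Schwann cell markers, 5, 0, 0 and 1 rose in Ti over naive by edgeR (6, 5, 0 and 1 at an unadjusted p under 0.05; DESeq2 called 5, 2, 0 and 1), and 1, 2, 5 and 1 rose in Ti+I-OG over naive (3, 3, 6 and 1 passed with the replicate block, as did 5 of 6 tendon and 2 of 6 smooth muscle markers). Over all genes tested, 26.9% had an unadjusted edgeR p under 0.05 in Ti over naive. With the block, 24.3% of all genes passed in Ti+I-OG over naive. In Ti+I-OG over Ti no gene of these 6 marker lists passed by edgeR, DESeq2 or limma-voom. At an unadjusted edgeR p under 0.05 were 2 tendon, 3 osteoblast, 6 erythroid and 0 other markers, and 7.84% of all genes tested. All 7 osteoblast log2 differences were negative and all 7 erythroid ones positive, and the other lists had both signs. Libraries did not overlap for 4 osteoblast markers and 1 tendon marker (Ti+I-OG lower, 6.71% of all genes) and 7 erythroid markers (higher, 7.75%). The part that attached muscle or tendon has in the levels of the 10 genes was not tested.

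Genes whose pattern over the 9 libraries was most like the mean of the 10 were sought among 11985 other genes with a mean FPKM of at least 1. Pearson's r of log2(FPKM + 0.1) was 0.995 for Myoz1, a Z-disc protein of fast fibres, 0.994 for Tpm2, a tropomyosin, and 0.993 for Eef1a2, the translation elongation factor of muscle and neurons. Cdh13 (0.988), Prkag3 (0.987), Acta1 (0.987), Ndrg2 (0.987) and Fsd2 (0.986) followed. Acta1, the skeletal actin of the thin filament, was the most abundant of these at a mean of 568 FPKM, and Prkag3, a muscle subunit of AMP-activated kinase, the least at 1.14 FPKM.

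Tnnc2 overlaps Ube2c, Atp2a1 overlaps Rabep2, Myh1 overlaps Myhas and Ckm overlaps A930016O22Rik, in each case on the opposite strand in the GENCODE annotation. The library kit keeps no strand, so reads of overlapping stretches cannot be assigned with certainty.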

How the data were processed

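Polyadenylated RNA of 9 mouse tibia libraries was enriched with oligo(dT) beads and prepared with a NEBNext Ultra kit for Illumina sequencing, per the labels' protocols; this kit does not mark strand. RSEM, StringTie 1.3.1, fastp, edgeR and DESeq2 appear, with no roles, in the submitters' processing notes. Which aligner, build and annotation the authors used is not given in the sources used here; no gene coordinates are therefore printed, and promoters come from RefSeq on GRCm38.p6.

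The authors deposited an estimated count and an FPKM value per gene and library, under the symbols used here. Estimated counts were rounded to whole numbers before testing, and the deposited FPKM values served for levels between genes, ratios, likeness between genes and an alternative test. Transcript length is the median ratio of count to FPKM.

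Groups came from the sample titles. Within groups, every pair of libraries differed beyond sampling noise (chi-square over its degrees of freedom 12.9 to 132), and all 9 were used. A single edgeR 4.0.16 fit (R 4.3.3) of 14211 genes kept by filterByExpr, out of 22183, used TMM factors, a mean per group (6 residual degrees of freedom), the two-sided quasi-likelihood test and Benjamini-Hochberg adjustment at 0.05. CPM are TMM-normalised, and 3 counts correspond to 0.114 to 0.206 CPM. SE is the log2 fold change over the square root of F, and intervals are 95% intervals from this fit. Ratios were compared by exact permutation over libraries (scipy 1.17.1), adjusted over 9 tests (3 of them on the ratio over all 10 genes, given without a p), with a pseudocount of 0.01 FPKM for the troponins. Alternatives used DESeq2 1.42.0, limma 3.58.1, other scalings and filters, a length correction, a replicate block and each library left out.

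The 10 genes and the 17 gene lists were chosen with earlier results of these data known. Named beside them are 8 slow or shared counterparts, up to 3 passing genes of each list with the smallest p (or 1 not passing), and the 8 genes most like the set. The labels tie replicate numbers to nothing shared. From the data alone, the deviations of same-numbered libraries correlated at 0.197, 0.115 and 0.273 between Ti+I-OG and naive, each over 0.1. These groups were taken as paired on that ground alone. The blocked result is given beside the result without the block where it changed a call or count. The block was a term for replicate number in a single fit of all 9 libraries, so it also covered the Ti libraries. In the other comparisons 1 pair each fell short (−0.0238 between Ti and naive, 0.0739 between Ti+I-OG and Ti), and they were not taken as paired. The other pairs of Ti and naive correlated at 0.333 and 0.239, so the choice rests on the cut at 0.1 in every pair.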

Additional observations from a re-analysis of the deposited data

How the results depend on the processing

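The 10 log2 fold changes of Ti over naive kept their sign under every alternative run, and those of Ti+I-OG over naive did so except for Myh1. The number of the 10 genes that passed in Ti over naive (1 in the edgeR fit) was 3 without a filter on low counts, 0 by limma-trend on log2(FPKM + 0.1), on log2(FPKM + 1) and without a filter, 0 with the length correction, and 0 to 7 with a library left out. In Ti+I-OG over naive it was 3 without a filter, 0 by limma-trend without a filter, 0 with the length correction, and 0 to 5 with a library left out. It stayed 0 in Ti+I-OG over Ti under all alternatives run. With the replicate block, 6 genes passed in Ti over naive and 6 in Ti+I-OG over naive, and with the block and the length correction together 4 and 3; all genes called numbered 2968 and 3450 with the block and 2735 and 2098 with both. In every comparison, libraries with the same number shared only that number by their labels. Over the 3 comparisons 8 of 9 pairs correlated best with their own, which is a hint from the data, not the design. Of all genes, DESeq2 called 1859 in Ti over naive, 16 in Ti+I-OG over Ti and 2440 in Ti+I-OG over naive. Limma-trend called 484, 537 and 172 in Ti over naive with its 3 settings, and 2 in Ti+I-OG over Ti without a filter. The length correction called 350 in Ti+I-OG over naive, and with a library left out the counts were 100 to 1999, 0 to 5 and 59 to 2119. Differences near 0 changed sign in Ti+I-OG over Ti: by limma-voom Tnnc2 was 0.0772, Mylpf 0.0718, Atp2a1 0.0560, Tnni2 0.11 and Tnnt3 0.0714, with the length correction Pvalb was −0.12 (−0.0777 with the block too), and with the replicate block Mylpf was 0.00243 and Tnni2 0.0169. With a library left out, the lowest and highest values were −0.30 and 0.63 for Pvalb, −0.61 and 0.40 for Actn3, −0.44 and 0.43 for Tnnc2, −0.45 and 0.29 for Mylpf, −0.41 and 0.45 for Atp2a1, −0.34 and 0.57 for Myh4, −0.37 and 0.41 for Tnni2, −0.46 and 0.35 for Tnnt3 and −0.12 and 0.82 for Ckm, and −0.12 and 0.19 for the ratio of fast to shared sarcomere genes; in Ti+I-OG over naive they were −0.37 and 0.36 for Myh1. Limma-trend on log2(FPKM + 0.1) moved the median of all genes by −0.19 in Ti+I-OG over naive and −0.11 in Ti+I-OG over Ti. The cause of these shifts was not tested.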
